A study of Mus musculus with 2 samples.

Results

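Striated muscle is built from a set of genes that other tissues use little, and 43 of them were followed in total RNA from the mouse adrenal gland. They code for the contractile filaments, the Z-disc, the calcium store and the energy supply of muscle fibres. The 43 were taken out of 55536 annotated genes from a list of symbols, and that list was selected on measured values: several of its members had already been seen to differ between the libraries used here. The members were sorted by known fibre type into 14 fast-fibre genes, 3 slow-fibre genes, 4 genes shared by slow fibres and heart, 3 genes of heart or developing muscle, and 19 genes common to striated muscle. Their difference between the libraries is therefore given as a description, with no test.

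Skeletal muscle fibres differ in speed. Fast fibres use fast forms of myosin, troponin and the sarcoplasmic calcium pump, and slow fibres use other genes for the same parts, several of which also serve the heart. The sarcomere, the repeating contractile unit, slides thick filaments of myosin along thin filaments of actin, tropomyosin and troponin, and titin and nebulin span and brace these filaments. The adrenal gland consists of a steroid-producing cortex and a catecholamine-producing medulla and has no striated muscle of its own.

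The study holds 2 libraries of 1 group: female adrenal glands of the hybrid strain B6CASTF1/J (C57BL/6J crossed with CAST/EiJ) at an age of 36 days and with no treatment named. Each library was made from 300 ng of total RNA to which ERCC spike-ins were added. They are labelled biological replicates 1 and 2, but the labels are not uniform on the animal: one field gives the samples different animal numbers, another gives both the same number, and both share a donor identifier. Any difference below is therefore a difference between 2 libraries, which may or may not be 2 animals. The libraries were of similar depth, with 35684781 expected counts in replicate 1 and 38701795 in replicate 2. All 8 adrenal identity genes examined, among them Star, Cyp11a1 and Th, were at 1 TPM (transcript abundance per length, scaled to a fixed total) or more in both libraries, with a median log2 ratio of 0.07.

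The striated muscle genes took 0.174% of all counts in replicate 1 (62148 counts; exact 95% interval 0.173 to 0.176%) and 0.0146% in replicate 2 (5638 counts; 0.0142 to 0.0150%). These and all later intervals cover counting error only. Summed over the 43 genes, the level was 606.52 TPM in replicate 1, against 74.25 TPM in replicate 2. At 1 TPM or more were 38 members in replicate 1 and 8 in replicate 2. The 8 were Myl1, Acta1, Cox6a2, Des, Eno3, Neb, Pygm and Tpm2, and all of them were also at 1 TPM or more in replicate 1. In bulk tissue, fewer cells of a type and less RNA per cell cannot be told apart.

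Ratios are replicate 1 over replicate 2 throughout. Log2 ratios were taken on TPM + 0.1, which understates the ratio of low genes, and genes were counted past 2-fold only with 200 or more counts summed over both libraries. That filter passed 27 of the 43 members, and 25 of the 27 were 2-fold or more higher in replicate 1, against 0.480% of all 12280 genes that passed. None of the 27 was 2-fold or more higher in replicate 2, against 0.423% of all genes. The list was selected on this difference. Members with few counts in replicate 2 also reached 200 counts through replicate 1, which fixed their direction in advance. Nothing is therefore read from the counts, here or for the fibre types below. The median log2 ratio was 4.23 over the 27 members and -0.04 over all 12280 genes. Just inside the 2-fold line were Tpm2 at a log2 ratio of 1.02 and Des at 1.03, and just outside it was Eno3 at 0.96. The other member between the lines was Pygm at -0.01.

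The 16 members under the filter were 6 fast genes, 5 slow or slow and heart genes, all 3 heart or developmental genes, and 2 common ones, Cacng1 and Trdn. For low genes the ratio of count shares is the better measure, that is, a gene's share of all counts in replicate 1 over its share in replicate 2. It could be formed for 42 members and ran from 0.723 for Cacng1 to 471 for Myh1, with a median of 36.95. The deposited TPM intervals, whose level is not given in the sources used here, lay apart with replicate 1 higher in 40 of 43 members and in 26 of the 27 that passed the filter, against 5.75% of all genes that passed. The exceptions among the 43 were Actc1, Cacng1 and Pygm. In replicate 2 the deposited TPM of 12 members lay below the deposited interval of the same gene, among them Tnnt3, Tnni2, Myh7 and Ttn. Of the 27 members that passed the filter 5 did so, or 18.5%, and the deposited TPM lay outside the interval in 2.66% of all genes that passed. In replicate 1 Tnnt1 alone among the members lay below its interval. Levels near 0 in replicate 2 are therefore uncertain by more than the printed decimals show.

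**Figure D1:**
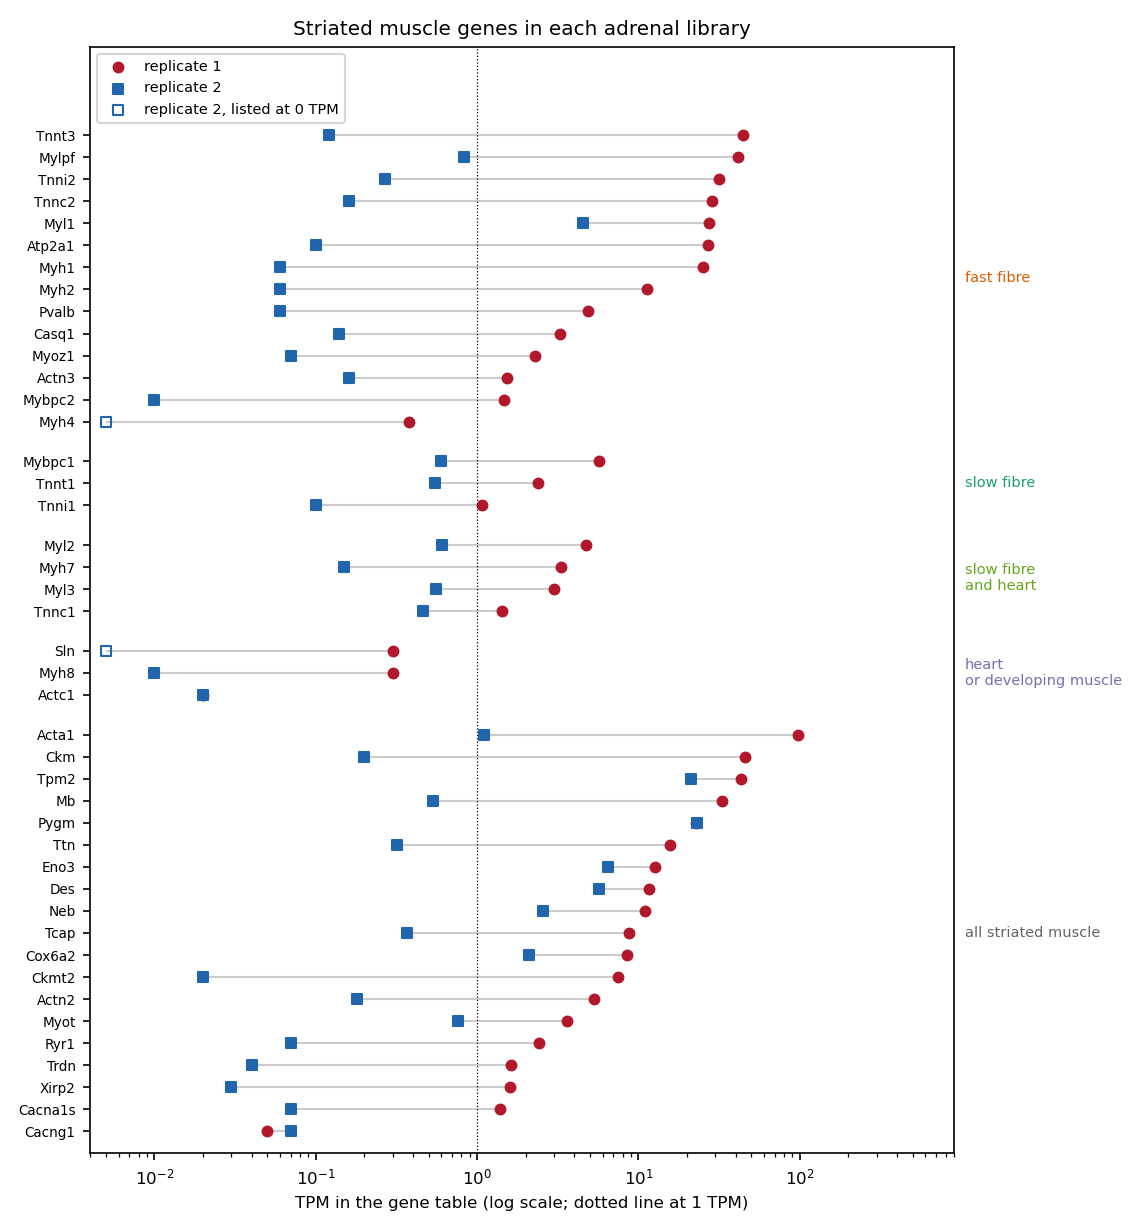
Level of each of the 43 genes in TPM on a log axis, with replicate 1 as circles and replicate 2 as squares, grouped by known fibre type. Replicate 1 lies right of replicate 2 in 40 genes; Actc1 and Pygm lie almost on top of each other, and Cacng1 lies slightly the other way.

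The 14 fast-fibre genes made up 250.19 TPM in replicate 1, against 6.56 TPM in replicate 2, a ratio of sums of 38.1. Of the 14, 13 reached 1 TPM in replicate 1 and 1, Myl1, did so in replicate 2. All 8 that passed the filter were 2-fold or more higher in replicate 1, against 0.480% of all genes that passed. Their median log2 ratio was 6.60. Beside Myl1, the fast genes had at most 16 counts in replicate 2, so those that passed did so through replicate 1.

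The motor proteins of the thick filament, the myosin heavy chains, differ between fibre types. Myh1, the chain of IIx fibres (chromosome 11, 67200052 to 67224575, mm10), was at 25.22 TPM in replicate 1, against 0.06 TPM in replicate 2. Its counts were 5209.62 in replicate 1 and 12.47 in replicate 2, a ratio of count shares of 471 (exact 95% interval 269 to 912). Myh2, the IIa chain, had 11.31 TPM in replicate 1, against 0.06 TPM in replicate 2, with 2395.72 and 11.45 counts and a ratio of 236. Both had very few counts in replicate 2.

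Myh4, the chain of the fastest IIb fibres, stayed below 1 TPM in both libraries. It had 0.38 TPM in replicate 1 but is listed at 0 TPM in replicate 2, from 80.22 and 1.03 counts. Myh8, the perinatal chain, was as low, at 0.30 TPM in replicate 1, against 0.01 TPM in replicate 2. Within the summed TPM of Myh1, Myh2, Myh4, Myh7 and Myh8 in replicate 1, Myh1 held 62.2%, Myh2 27.9%, Myh7 8.21%, Myh4 0.937% and Myh8 0.740%. By counts Myh1 held 63.4% (exact 95% interval 62.3 to 64.4%), and in the read-derived transcript table it held 75.6% of TPM. In replicate 2 the 5 chains had 46.75 counts in all, and Myh7 held 44.5% of them (30.2 to 59.9%). Myh2, Myh1, Myh4 and Myh8 lie side by side on chromosome 11 and have near-identical stretches, and their fractional counts show reads divided among genes, so the split between them is uncertain.

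The fast light chains sit on the neck of the myosin head. Mylpf, the fast regulatory light chain, had 41.12 TPM in replicate 1, against 0.83 TPM in replicate 2, from 562 and 13 counts. Myl1, which codes for the fast essential light chains, had 27.33 TPM in replicate 1, against 4.52 TPM in replicate 2. Its 774 and 125 counts gave a ratio of count shares of 6.72 (5.55 to 8.18), the lowest among the fast genes. Mybpc2, fast myosin-binding protein C of the thick filament, had 1.46 TPM in replicate 1, against 0.01 TPM in replicate 2, and its single count in replicate 2 leaves the ratio of 201 with an interval from 35.6 to 7967.

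The fast troponins switch the thin filament on when calcium rises. Tnnt3, fast troponin T, which ties the complex to tropomyosin (ENSMUSG00000061723.18, chromosome 7, 142498836 to 142516009), had 44.50 TPM in replicate 1, against 0.12 TPM in replicate 2, and had a ratio of count shares of 395 (154 to 1451). Tnni2, the inhibitory subunit, had 31.52 TPM in replicate 1, against 0.27 TPM in replicate 2. Tnnc2, the calcium-binding subunit, had 28.42 TPM in replicate 1, against 0.16 TPM in replicate 2. The 3 subunits form one complex, and with Mylpf they were the 4 highest of the fast genes in replicate 1. In replicate 2 they had 4, 6 and 3 counts.

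The fast calcium-handling genes showed the same order of libraries. Atp2a1, the SERCA pump that returns calcium to the store of fast fibres, had 26.98 TPM in replicate 1, against 0.10 TPM in replicate 2, from 3287 and 13 counts and with a ratio of 274 (160 to 516). Casq1, the calcium-binding protein inside that store, had 3.27 TPM in replicate 1, against 0.14 TPM in replicate 2. Pvalb, parvalbumin, a soluble calcium buffer of fast fibres, had 4.84 TPM in replicate 1, against 0.06 TPM in replicate 2. Its counts were 149 in replicate 1 and 2 in replicate 2, and the gene is also known from neurons.

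At the fast Z-disc, the plate that anchors the thin filaments, Actn3 had 1.54 TPM in replicate 1, against 0.16 TPM in replicate 2, with a ratio of 9.29 (5.52 to 16.7). Myoz1, which binds alpha-actinin, had 2.30 TPM in replicate 1, against 0.07 TPM in replicate 2, with a ratio of 48.8 (13.1 to 409). Actn3 and Myl1 were the 2 fast genes with the smallest ratios.

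The 7 slow-fibre genes, including those shared with heart, were lower in summed level than the fast genes and had a smaller ratio of sums. They summed to 21.59 TPM in replicate 1, against 3.03 TPM in replicate 2, a ratio of 7.13. All 7 were at 1 TPM or more in replicate 1 and none in replicate 2. Only Mybpc1 and Myh7 passed the filter on summed counts, both through replicate 1. Both were 2-fold or more higher there, against 0.480% of all genes that passed.

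Mybpc1, slow myosin-binding protein C, was the highest of the 7 in replicate 1. It had 5.66 TPM in replicate 1, against 0.60 TPM in replicate 2, and had a ratio of count shares of 11.1 (8.55 to 14.7). Myh7, the heavy chain of slow fibres that the heart also makes, had 3.33 TPM in replicate 1, against 0.15 TPM in replicate 2, with a ratio of 24.2 (15.7 to 39.5). Myl2, the slow regulatory light chain, had 4.71 TPM in replicate 1, against 0.61 TPM in replicate 2. Myl3, the slow essential light chain, had 2.99 TPM in replicate 1, against 0.56 TPM in replicate 2. The light chains rest on 85 and 86 counts in replicate 1 and on 8 and 14 counts in replicate 2.

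The slow troponins were the lowest of the 7 in replicate 1, whereas in replicate 2 Myh7 was below Tnnt1 and Tnnc1. Tnnt1, slow troponin T, had 2.40 TPM in replicate 1, against 0.55 TPM in replicate 2. Tnnc1, the calcium-binding subunit of slow fibres and heart, had 1.43 TPM in replicate 1, against 0.46 TPM in replicate 2, with a ratio of 3.16. Tnni1, slow troponin I, had 1.07 TPM in replicate 1, against 0.10 TPM in replicate 2, from 39 and 4 counts.

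By ratio of count shares, the fast genes ran from 6.72 to 471 with a median of 108, and the slow genes from 3.16 to 24.2 with a median of 10.6. Of the 14 fast genes, 12 had a ratio above the highest slow one, that of Myh7, and the 2 that did not were Myl1 and Actn3. The list was selected on the difference between the libraries, so this order is a description only. The intervals are wide where replicate 2 had few counts. Those of 4 of the 12 begin inside the range of the slow ratios: Casq1 at 12.7, Myoz1 at 13.1, Myh4 at 15.1 and Pvalb at 21.98. The slow genes' own intervals reach up to 39.5 for Myh7 and 40.7 for Tnni1. Those of Mylpf, from 27.2, and Mybpc2, from 35.6, also begin below these limits.

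**Figure D2:**
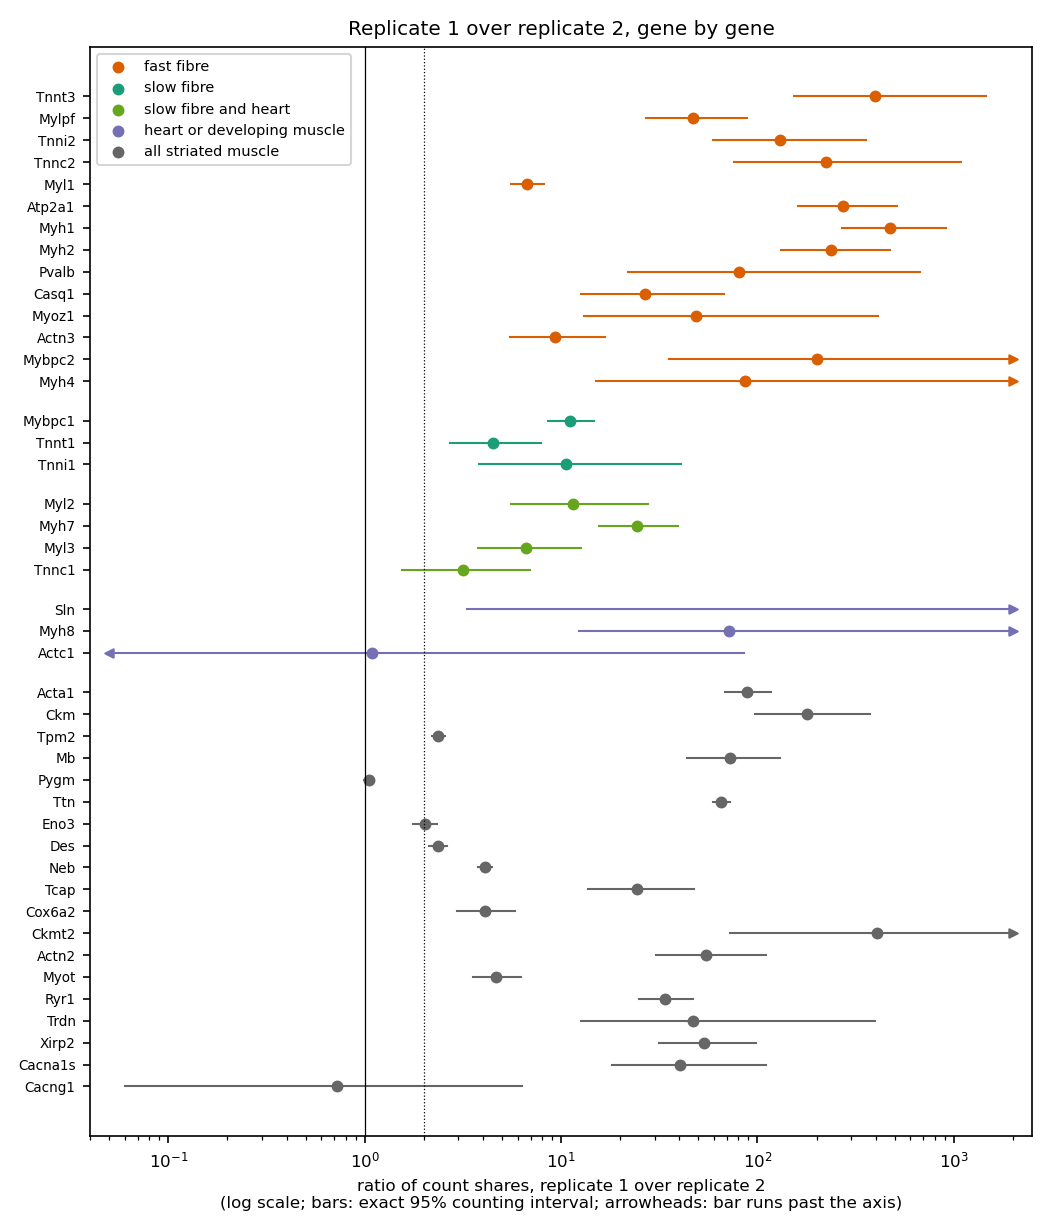
Ratio of count shares, replicate 1 over replicate 2, for each gene on a log axis, coloured by fibre type, with exact 95% counting intervals as bars; the solid line is equality and the dotted line 2-fold. Sln has no count in replicate 2 and is drawn as an interval without a point; most fast genes lie right of the slow genes, and Pygm lies at equality.

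Levels of paralogues, the fast and slow genes for the same part, were compared per length as TPM in 6 pairs: 3 troponins, 2 light chains and myosin-binding protein C. Over the 6 pairs the fast genes summed to 174.35 TPM and the slow genes to 18.26 TPM in replicate 1, a fast share of 90.5%. In replicate 2 they summed to 5.91 TPM and 2.88 TPM, a fast share of 67.2%. Counted as reads, with no correction for length, the fast share was 82.0% in replicate 1 (80.9 to 83.0%) and 56.5% in replicate 2 (50.4 to 62.5%).

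Pair by pair, the fast gene led in 5 of 6 pairs in replicate 1. Its share was 96.7% for troponin I, 95.2% for troponin C, 94.9% for troponin T, 90.1% for the essential light chain and 89.7% for the regulatory light chain. Myosin-binding protein C went the other way, with the fast gene Mybpc2 at 20.5% and the slow gene Mybpc1 holding the rest. The slow form of this protein is known to occur in fast fibres too.

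In replicate 2 the pairs rested on 152 fast and 117 slow counts in all. The fast share was 73.0% for troponin I, 25.8% for troponin C, 17.9% for troponin T, 1.64% for myosin-binding protein C, 57.6% for the regulatory light chain and 89.0% for the essential light chain. Myl1 alone gave 125 of the 152 fast counts. Without the essential light chain pair, a choice made after seeing the data, the fast share was 90.6% in replicate 1 and 37.5% in replicate 2, so the value of replicate 2 rests on Myl1.

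**Figure D3:**
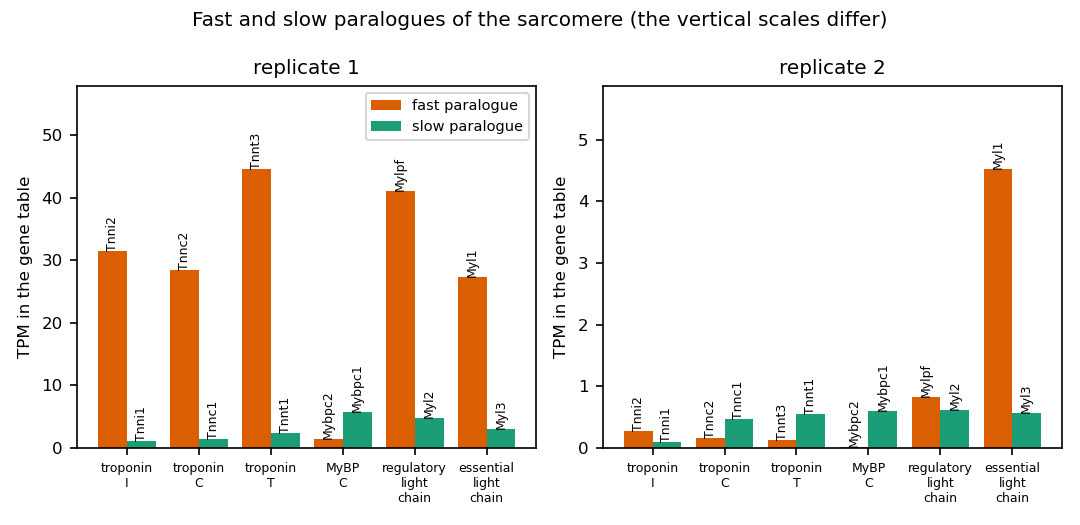
TPM of the fast (orange) and slow (green) paralogue of 6 sarcomere parts in replicate 1 (left) and replicate 2 (right), on vertical scales that differ. In replicate 1 the fast gene is taller in all pairs but myosin-binding protein C; in replicate 2 Myl1 at 4.52 TPM stands above all others, which are below 1 TPM.

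Of the 3 genes of heart or developing muscle, none reached 1 TPM in either library. Actc1, cardiac actin, had 1 count in each library, too few to compare. Sln, sarcolipin, a small inhibitor of the calcium pump, had 13 counts in replicate 1 and 0 in replicate 2, a ratio of count shares of 4.70 when 3 counts are set for the 0 and an exact 95% lower limit of 3.31. The heart genes examined beside the list were low: 2 of 10 reached 1 TPM in replicate 1 and 1 of 10 in replicate 2. TPM was higher in replicate 1 in 5 of the 10. The deposited intervals lay apart with replicate 1 higher in 2, Myh6 and Casq2, and with replicate 2 higher in 0. Replicate 1 was higher in this way in 5.75% of all genes that passed the filter, which neither Myh6 nor Casq2 did. Nppa and Nppb, natriuretic peptides of heart muscle, had 0 counts in both libraries. Myh6, a heavy chain of heart muscle, had 1.28 TPM in replicate 1, against 0.05 TPM in replicate 2. In the read-derived table Myh6 had 0.44 and 0.05 TPM, so it reached 1 TPM in the gene table only. Its counts of 38.77 and 2.20 are fractional, as are those of the member Myh7 beside it on chromosome 14. The split of reads between Myh6 and Myh7 is therefore uncertain. Casq2 had 0.97 TPM in replicate 1, against 0.21 TPM in replicate 2, with a ratio of 6.07 (3.48 to 11.3). The calcium channel gene Ryr2 had 2.33 TPM in replicate 1, against 2.59 TPM in replicate 2.

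The 19 genes common to striated muscle summed to 334.12 TPM in replicate 1, against 64.63 TPM in replicate 2. Of the 17 that passed the filter, 15 were 2-fold or more higher in replicate 1, against 0.480% of all genes that passed. They held 7 of the 8 members at 1 TPM or more in replicate 2, and 64.63 of the 74.25 TPM of the whole list in that library.

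Acta1, skeletal alpha-actin of the thin filament (ENSMUSG00000031972.5, chromosome 8, 123891769 to 123894751, mm10), was the highest member in replicate 1, with 97.62 TPM there and 1.11 TPM in replicate 2. Its 4736 and 58 counts gave a ratio of count shares of 88.6 (68.4 to 117). Neb, nebulin, which runs along the thin filament, had 10.93 TPM in replicate 1, against 2.55 TPM in replicate 2, with a ratio of 4.10 (3.80 to 4.43). Ttn, titin, the spring between Z-disc and thick filament, gave more counts than any other member, 24688 in replicate 1 and 410 in replicate 2, and its transcripts are among the longest known. Per length it was at 15.70 TPM in replicate 1, against 0.32 TPM in replicate 2, with a ratio of count shares of 65.3 (59.2 to 72.2).

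Tpm2, beta-tropomyosin of the thin filament (ENSMUSG00000028464.16, chromosome 4, 43514711 to 43523765), was high in both libraries, at 43.02 TPM in replicate 1, against 21.15 TPM in replicate 2. The gene is known to make a skeletal muscle form and a form of smooth muscle and non-muscle cells by choosing between mutually exclusive internal exons and between different ends. Its 2 main transcripts differed in how far the libraries stood apart. Tpm2-202 had 11.78 TPM in replicate 1, against 0.98 TPM in replicate 2 in the alignment-derived table, with a ratio of count shares of 12.1 (9.58 to 15.5). Tpm2-203 had 28.42 TPM in replicate 1, against 19.66 TPM in replicate 2, with a ratio of 1.46 (1.33 to 1.60). The read-derived table gave nearly the same split, with 19.95 and 1.65 TPM for Tpm2-202 and 55.8 and 36.5 TPM for Tpm2-203 in replicates 1 and 2. Tpm2-202 held 27.4% of the gene's TPM in replicate 1 and 4.64% in replicate 2.

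The transcripts share 7 coding exons and differ in 1 internal exon of 76 bases and in the last coding segment. The internal exons are shown as one of the places where reads can tell the transcripts apart. They lie on the minus strand of chromosome 4 (mm10, GENCODE M21), at chr4:43518644-43518719 for Tpm2-202 and at chr4:43519003-43519078 for Tpm2-203. Capitals mark the 35 bases at which the exons differ, and 53.95% of positions are the same.
Tpm2-202: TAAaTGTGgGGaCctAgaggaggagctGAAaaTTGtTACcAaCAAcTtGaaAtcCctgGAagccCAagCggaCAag
Tpm2-203: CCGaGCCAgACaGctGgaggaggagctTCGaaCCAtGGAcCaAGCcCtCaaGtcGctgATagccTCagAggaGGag
The exon of Tpm2-202 lies downstream of that of Tpm2-203 on the minus strand, and its last coding segment, 43515924 to 43516003, lies upstream of that of Tpm2-203, 43514782 to 43514861.

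**Figure D4:**
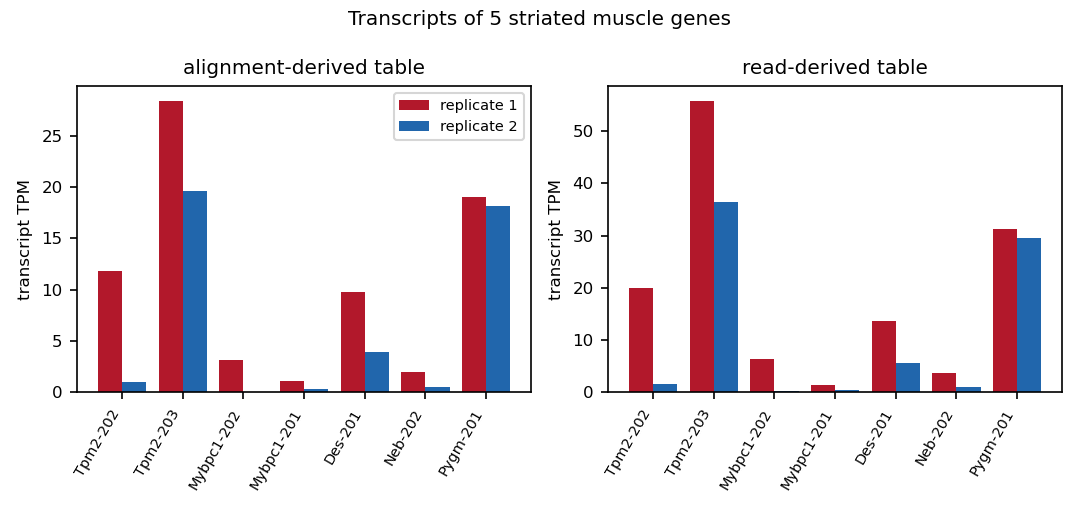
TPM of selected transcripts of Tpm2, Mybpc1, Des, Neb and Pygm in replicate 1 (red) and replicate 2 (blue), in the alignment-derived table (left) and the read-derived table (right). In replicate 2 Tpm2-202 is at 0.98 and 1.65 TPM and Tpm2-203 at 19.66 and 36.5 TPM, and the bars of Pygm-201 are nearly level in both tables.

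Of the 5 Z-disc genes in the common set, 3 had less than 0.5 TPM in replicate 2 and 2 had more. Actn2, alpha-actinin of all striated muscle, had 5.31 TPM in replicate 1, against 0.18 TPM in replicate 2. Tcap, which caps titin at the Z-disc, had 8.75 TPM in replicate 1, against 0.37 TPM in replicate 2. Xirp2, an actin-binding repeat protein, had 1.60 TPM in replicate 1, against 0.03 TPM in replicate 2. Myot, myotilin, was closer between libraries, at 3.60 TPM in replicate 1, against 0.76 TPM in replicate 2 with a ratio of 4.69 (3.54 to 6.28). Des, desmin, the intermediate filament that links Z-discs and that smooth muscle makes as well, had 11.66 TPM in replicate 1, against 5.66 TPM in replicate 2, a ratio of 2.36 (2.12 to 2.63).

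Genes of excitation-contraction coupling pass the electrical signal to the calcium store. Ryr1, the calcium release channel, had 2.43 TPM in replicate 1, against 0.07 TPM in replicate 2, from 1308 and 42 counts. Cacna1s, its voltage sensor, had 1.39 TPM in replicate 1, against 0.07 TPM in replicate 2. Trdn, triadin, which links the release channel to calsequestrin, had 1.63 TPM in replicate 1, against 0.04 TPM in replicate 2. Cacng1, a subunit of the voltage sensor, was the exception, with 2 counts in replicate 1 and 3 in replicate 2, too few to compare.

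The genes of energy supply held the widest span. Ckm, cytosolic muscle creatine kinase, had 45.87 TPM in replicate 1, against 0.20 TPM in replicate 2, and its mitochondrial partner Ckmt2 had 7.50 TPM in replicate 1, against 0.02 TPM in replicate 2. Ckmt2 had a single count in replicate 2, and its ratio of 407 had an interval of 72.6 to 16106. Mb, myoglobin, the oxygen store of slow and oxidative fibres and of the heart, had 33.12 TPM in replicate 1, against 0.53 TPM in replicate 2. Cox6a2, the muscle form of a cytochrome oxidase subunit, had 8.49 TPM in replicate 1, against 2.09 TPM in replicate 2, a ratio of 4.11.

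Eno3, beta-enolase of glycolysis, had 12.61 TPM in replicate 1, against 6.44 TPM in replicate 2, and its ratio of count shares of 2.02 had an interval from 1.76 to 2.32 that spans 2. Pygm, muscle glycogen phosphorylase (ENSMUSG00000032648.14, chromosome 19, 6384399 to 6398459), had 22.84 TPM in replicate 1, against 22.97 TPM in replicate 2, with a ratio of 1.05 (0.988 to 1.12). Pygm was thus the one well-counted member whose level was close in both libraries, with 1966 counts in replicate 1 and 2028 in replicate 2. The main transcript, Pygm-201, had 19.02 TPM in replicate 1, against 18.12 TPM in replicate 2.

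The make-up of the signal differed between libraries. In replicate 1 the 5 highest members were Acta1, Ckm, Tnnt3, Tpm2 and Mylpf, with 44.9% of the summed TPM. In replicate 2 they were Pygm, Tpm2, Eno3, Des and Myl1, with 81.8%, and Pygm and Tpm2 alone held 59.4%.

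Other transcripts were examined by the same rule, those holding at least 10% of a gene's TPM in a library and table. Mybpc1-202 had 3.17 TPM in replicate 1 but is listed at 0 TPM in replicate 2 in the alignment-derived table, and had 6.30 and 0.22 TPM in the read-derived one. Mybpc1-201 differed less, with 1.12 TPM in replicate 1, against 0.37 TPM in replicate 2. For nebulin, Neb-202 had 1.95 TPM in replicate 1, against 0.49 TPM in replicate 2, whereas the shorter Neb-206 had 0.32 TPM in replicate 1, against 0.37 TPM in replicate 2. Des-201 had 9.79 TPM in replicate 1, against 3.96 TPM in replicate 2, and the retained-intron transcript Des-202 had 1.62 TPM in replicate 1, against 1.45 TPM in replicate 2 in the alignment-derived table, but 13.8 and 6.46 TPM in the read-derived table.

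For several genes the 2 tables named different transcripts, so no isoform is reported for them. The reads of Tnnt3 in replicate 1 went mainly to Tnnt3-213, Tnnt3-211 and Tnnt3-216 by alignment, at 14.86, 12.52 and 8.91 TPM, and to Tnnt3-202 and Tnnt3-225 in the read-derived table, at 42.2 and 35.9 TPM. For Myl1 in replicate 1 the alignment-derived table held 17.84 TPM for Myl1-202, 8.83 TPM for Myl1-201 and none for Myl1-206, and the read-derived table held 23.0, 8.50 and 20.7 TPM. Added after seeing the values, Acta1-202, of 616 bases, was at 0.21 TPM by alignment and 86.8 TPM in the read-derived table in replicate 1, and Myh1-204, of 631 bases, at 1.08 and 31.9 TPM. Over protein-coding genes at 1 TPM or more the read-derived TPM was a median of 1.75 times the gene-table TPM in replicate 1 and 1.74 times in replicate 2. For the members it was 1.67 times over 38 genes in replicate 1, from 0.987 for Trdn to 3.73 for Myl2, and 1.80 times over 8 genes in replicate 2.

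A further 38 skeletal muscle genes outside the list were examined. Of the 11 that passed the filter, 6 were 2-fold or more higher in replicate 1, against 0.480% of all genes that passed. None of the 11 was 2-fold or more higher in replicate 2, and their median log2 ratio was 1.43. Over all 38, the deposited intervals lay apart with replicate 1 higher in 21, against 5.75% of all genes that passed. They lay apart with replicate 2 higher in 1, Fbp2, which was under the filter. Fbp2 had 0.91 TPM in replicate 1, against 1.96 TPM in replicate 2, from 41 and 95 counts. Among the higher ratios were those of Nrap, Cmya5 and Ldb3, with log2 ratios of 3.25, 3.22 and 2.86. Close between the libraries was the muscle phosphofructokinase Pfkm, with 19.75 TPM in replicate 1, against 19.86 TPM in replicate 2. So was Smpx, with 7.43 TPM in replicate 1, against 7.11 TPM in replicate 2.

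Genes of muscle precursors and of the nerve-muscle junction were near the limit of detection. None of 13 reached 1 TPM in either library, and 4 had 0 counts in replicate 1 and 8 in replicate 2. Myod1, the regulator that commits cells to the muscle lineage, had 0 counts in both. Myf6, a regulator that stays on in mature fibres, had 8 counts in replicate 1 and 0 in replicate 2, a ratio of 2.89 when 3 counts are set for the 0 and an exact 95% lower limit of 1.85.

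Smooth muscle genes, which the gland's vessels and capsule can hold, were close between libraries. None of the 7 that passed the filter was 2-fold apart, their median log2 ratio was 0.15, and the 10 genes examined summed to 107.31 TPM in replicate 1, against 95.72 TPM in replicate 2. Tagln had 30.52 TPM in replicate 1, against 27.46 TPM in replicate 2, and Acta2 had 9.35 TPM in replicate 1, against 8.57 TPM in replicate 2. Of 17 broadly expressed relatives of the members, 15 passed and none was 2-fold apart, with a median of -0.05. The 6 fat genes examined were likewise all within 2-fold, at 1898.6 TPM summed in replicate 1 and 1882.77 TPM in replicate 2.

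The 6 liver genes examined, chosen with earlier results of these data known, were all higher in replicate 1. They summed to 34.23 TPM in replicate 1, against 2.18 TPM in replicate 2. Alb was at 22.70 TPM in replicate 1, against 1.34 TPM in replicate 2. Of the 6, Alb alone passed the filter, through replicate 1, and was 2-fold or more higher there, against 0.480% of all genes that passed. The rest had at most 10 counts in replicate 2, so nothing is read from their number. The part of the liver genes in the result was not tested. Of 11612 protein-coding genes that passed the filter, 54 were 2-fold or more higher in replicate 1, of which 25 were members and 29 were not. The 14 largest ratios all belonged to members, and Alb came at rank 15. The members were selected on this difference, so their number and rank here restate that selection. The 10 non-members with the largest ratios also included Apob, Nrap, Cmya5, Ahsg, Myo18b, Serpina3k, Ldb3 and Myom1, genes known from muscle or liver. At the other end of the order the 10 non-members highest in replicate 2 relative to replicate 1 included Nr4a1, Sik1, Csrnp1 and Nr4a2, and none of the 10 is in a muscle list used here.

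**Figure D5:**
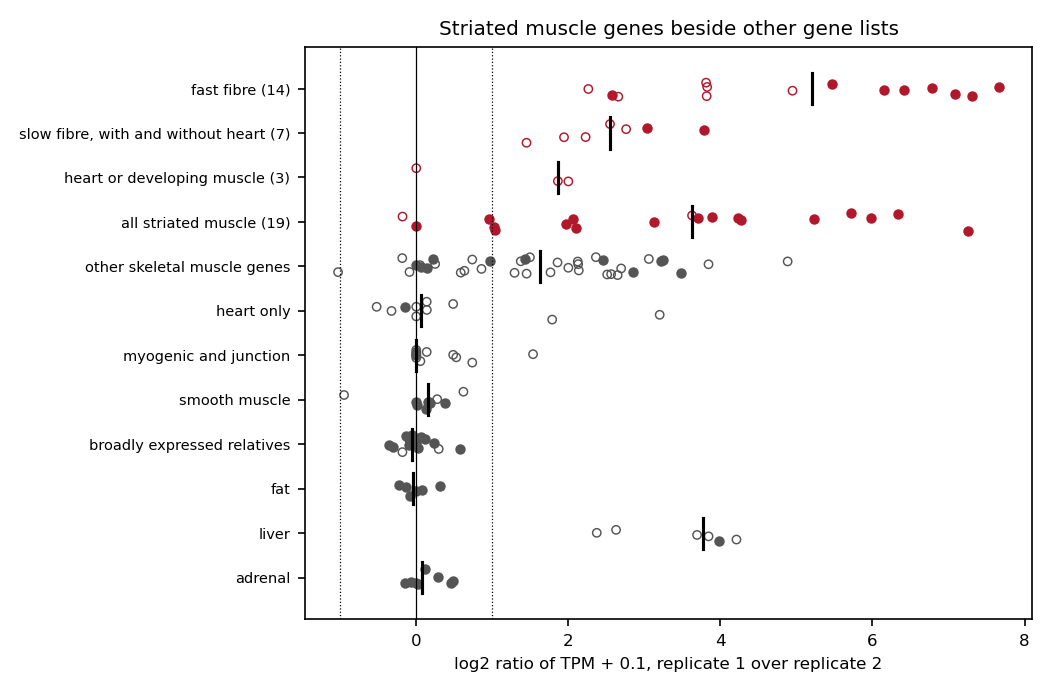
Log2 ratio of TPM + 0.1, replicate 1 over replicate 2, for the striated muscle genes (red, by fibre type) and other gene lists (grey); filled points passed the filter of 200 summed counts, vertical bars are medians over all genes of a list, and dotted lines mark 2-fold. The smooth muscle, fat, adrenal and broadly expressed lists centre near 0, the liver list does not.

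Another counted gene overlaps 7 members on the opposite strand: Atp2a1, Tnnc2, Tnnt3, Myl3, Tnnc1, Acta1 and Mb. Whether counting used strand is not given in the sources used here, so reads of the partners may stand among theirs. The heaviest partner was Nisch at Tnnc1, with 11214 counts in replicate 1 and 11583 in replicate 2, so the 32 and 11 counts of Tnnc1 are uncertain. Gm20388 at Acta1 had 0 counts in replicate 1 and 333.38 in replicate 2.

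Promoters of members, whatever their level, were read from RefSeq (GRCm38.p6), as the 250 bases before each start. Windows matched 32 of the 43 members by symbol. Searched on both strands were the E-box CANNTG bound by myogenic regulators, TATAAA, and the MEF2 and CArG motifs bound by MEF2 and serum response factor. The E-box was present in 28 of the 32 members, and 66.22% of all 32851 promoter windows hold it. MEF2 was present in 6 members, Myh1, Myh4, Myh8, Pvalb, Ttn and Xirp2, with 2.919% of all windows holding it. CArG was present in 4, Acta1, Actc1, Myh4 and Myl3, with 1.467% of all windows, and TATAAA in 7, with 12.37%. Some members have more than 1 window, so counts of members and shares of windows are not on one scale. Of the 38 member windows, 86.84% held the E-box, 15.79% MEF2, 10.53% CArG and 18.42% TATAAA. A match is a description of letters only.

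The windows of Acta1 and Ckm are shown as those of the 2 highest members in replicate 1, 5′ to 3′ on the gene's strand, with motif matches in capitals. That of Acta1 is chr8:123894776-123895025 on the minus strand, and that of Ckm is chr7:19410844-19411093 on the plus strand.
Acta1: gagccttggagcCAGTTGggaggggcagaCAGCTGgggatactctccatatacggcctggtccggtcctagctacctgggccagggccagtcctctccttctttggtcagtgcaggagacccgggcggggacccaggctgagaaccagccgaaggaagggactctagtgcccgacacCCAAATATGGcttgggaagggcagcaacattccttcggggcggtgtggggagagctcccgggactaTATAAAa
Ckm: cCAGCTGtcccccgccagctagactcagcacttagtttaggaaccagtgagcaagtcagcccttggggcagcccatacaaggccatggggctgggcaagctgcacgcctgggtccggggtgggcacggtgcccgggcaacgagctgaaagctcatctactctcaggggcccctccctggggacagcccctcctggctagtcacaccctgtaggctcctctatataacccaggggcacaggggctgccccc
Acta1 holds 2 E-boxes, at -238 and -221 from the RefSeq start, 1 CArG motif at -73 and TATAAA at -7. The GENCODE start of Acta1 lies 24 bases further downstream, which puts TATAAA at -31 from it. Ckm holds 1 E-box, at -249, and none of the other motifs searched.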

How the data were processed

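Total RNA of the adrenal gland was measured in 2 libraries. Expected counts and TPM fill the gene table and one transcript table per the file headers, and the text deposited beside them names mm10, GENCODE M21 and transcriptome alignments as their source. The read-derived transcript table holds deposited estimated counts and TPM made straight from the reads. The deposited interval bounds around each TPM were treated as a signal. On the aligner, versions, filters and strand setting nothing is given in the sources used here. Expected counts need not be whole, so reads can be divided among related genes, and TPM depends on all else that a table counts.

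From these, log2 ratios of TPM + 0.1, ratios of count shares with exact (Clopper-Pearson) 95% intervals after rounding to whole counts, and counts of genes past 2-fold with 200 or more summed counts were computed. Where a gene had 0 counts, up to 3 were allowed. With 1 group of 2 libraries there is no test. The ratios and counts were checked on simulated data. Scaling alternatives used edgeR 4.0.16 (TMM) and DESeq2 1.42.0 (size factors) in R 4.3.3, with expected counts rounded. All other steps ran in Python 3.11.15 (pandas 2.3.3, numpy 2.4.6, scipy 1.17.1; plots by matplotlib 3.10.9). Promoter sequences came from RefSeq, and exon sequences from the GENCODE M21 transcripts.

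The members, the other lists and the pairs were chosen with earlier results of these data known. All 43 members are named. Of each other list at most 4 members with the highest and 2 with the lowest ratio were to be named, besides the 10 non-member protein-coding genes with the largest ratio each way, and some further genes (the defining markers at 0, Tagln, Acta2, Alb and the like) were chosen after their values were seen. Transcripts were to be described for Myl1, Tpm2, Tnnt3, Ttn, Des, Neb, Mb, Actn2 and Mybpc1, and those of Myh1, Acta1, Pygm and Eno3 were added after seeing the values. Protein sequences were not used here. 1 gene that the rule would name is not reported here.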

Additional observations from a re-analysis of the deposited data

How the results depend on the processing

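The direction of the difference held under every alternative run: no member 2-fold or more higher in replicate 1 turned round, and no member passed 2-fold the other way. The count of 25 such members of 27 was 23 with a pseudocount of 1 TPM and 26 with TMM or DESeq2 scaling, and in the read-derived sums it was 23 of the 26 that passed there. With a filter of 50 counts it was 36 of the 38 that passed, beside 1.15% of all 15113 genes. Without a filter it was 39 of 43, beside 1.74% of all 55536 genes. The median log2 ratio of 4.23 was 2.42 with a pseudocount of 1 TPM, 4.93 with one of 0.01 TPM, 3.63 with no filter, 3.79 with a filter of 50 counts, 5.52 with TMM scaling, 5.52 with DESeq2 size factors, 4.34 in the read-derived sums and 4.66 with TPM rescaled to nuclear protein-coding genes. The pseudocount moves it by construction, since many members are near 0 in replicate 2. The count scalings use no TPM pseudocount but add 0.5 counts, which lowers the ratio of members with very few counts in replicate 2. The median over all genes moved by less than 0.1 under each.

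The 8 members at 1 TPM or more in both libraries became 13 in the read-derived sums, 18 with rescaled TPM, 15 at a limit of 0.5 TPM, and from 8 to 38 with either library left out. The fast share over the pairs in replicate 1 was 89.3% in the read-derived sums. Without the essential light chain pair, an alternative chosen after seeing the data, the fast share in replicate 2 was 37.5%. Of single genes, a pseudocount of 1 TPM put Myh4, Tnni1, Tnnc1, Sln, Myh8, Des and Tpm2 under 2-fold, the read-derived sums put Tpm2 under it, and both count scalings put Eno3 over it. Pygm ranged from -0.25 in the read-derived sums to 0.10 with TMM scaling. No paired analysis was possible because the study has 1 group. Depth limits the members with under 20 counts in replicate 2, whose ratios are known only within wide intervals.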
